A study of Mus musculus with 6 samples.

Results

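The miR-199 and miR-214 miRNAs were followed in small RNA libraries of primary mouse mesangial cells. These cells form the core of the kidney's filtering tuft and contract like smooth muscle, and they were either left untreated or given transforming growth factor β1 (TGF-β1), which makes them lay down scar matrix. The group comprised every listed arm of the hairpins miR-199a, miR-199b and miR-214, which gave 6 of the 778 mature miRNAs in the table: mmu-miR-199a-5p, mmu-miR-199a-3p, mmu-miR-199b-5p, mmu-miR-199b-3p, mmu-miR-214-5p and mmu-miR-214-3p, named below without the mouse prefix mmu. Control comprised 3 libraries of untreated cells, and TGF-β1 (labelled TGF-beta1) 3 libraries of cells given 10 ng/ml for 72 h. Cells of both groups were grown in medium with 25.5 mM glucose and 20% fetal bovine serum and were used between passages 3 and 6, so the untreated cells shared this medium. Collection was in triplicate, and because separate cultures are not stated, p-values measure the spread between these libraries, which may be technical.

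A miRNA hairpin carries a mature strand on each arm, named 5p and 3p, and usually loads 1 of them into the silencing complex, where bases 2 to 8 (the seed) pair with target mRNAs. Hairpins of miR-199a-2 and miR-214 are made from 1 long non-coding transcript, Dnm3os, which is read from the strand opposite to the dynamin 3 gene. These miRNAs are typical of mesenchymal cells such as fibroblasts, pericytes and smooth muscle, and have been studied in tissue fibrosis. Caveolin-1 is a known target of miR-199a-5p and mTOR of miR-199a-3p.

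The mature sequences from the RefSeq table (build GRCm38.p6) are shown 5′ to 3′ because they decide which rows of the table can be told apart. Capitals mark the seed. Of the 6 members 5 had a mature sequence there, and miR-199b-5p did not.
miR-199a-3p: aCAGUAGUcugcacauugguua
miR-199b-3p: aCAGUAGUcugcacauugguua
miR-199a-5p: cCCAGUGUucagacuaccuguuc
miR-214-3p: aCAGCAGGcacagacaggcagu
miR-214-5p: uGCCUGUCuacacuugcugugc

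The 3p arms of miR-199a and miR-199b had the same 22 bases, and this sequence occurred at 3 places in the NCBIM37 mouse genome, the build on which the study placed its RNA reads. One was the hairpin Mir199a-2 (chr1:164147945-164148054, plus strand), one was Mir199a-1 (chr9:21300939-21301008, minus strand) and one was Mir199b (chr2:32173980-32174089, plus strand). Reads of this 3p arm could therefore not be assigned to 1 of the 3 hairpins. The miR-199a-5p sequence occurred at 2 places, in Mir199a-1 and Mir199a-2, and the arms of miR-214 at 1 place, in Mir214 (chr1:164153499-164153608, plus strand).

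In the GENCODE vM1 annotation each of the 4 hairpins lay in an intron of a dynamin gene, on the opposite strand: Mir199a-2 and Mir214 in Dnm3, Mir199a-1 in Dnm2 and Mir199b in Dnm1. Mir199a-2 and Mir214 also lay within exon sequence of Dnm3os on the same strand, 5444 bp apart. The 3p arms of miR-199a and miR-214 both begin with ACAG, yet their seeds differed by the changes U5C and U8G (position from the 5′ end, miR-199a-3p base first). No other mature sequence in the RefSeq table had the seed of miR-199a-5p or of miR-214-5p. This comparison could not include miR-199b-5p, a member with a row in the expression table, because it had no mature sequence there. The seed of miR-214-3p was shared with miR-761, which had no row in the expression table.

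Library totals ran from 16478281 to 17623671 reads in Control and from 17086815 to 20169254 in TGF-β1, and values are in RPM, the count of a miRNA for every 1000000 reads in its library's total. One read was thus worth 0.0496 to 0.0607 RPM. The listed miRNAs took 79.5% to 79.8% of the total in Control and 71.6% to 73.1% in TGF-β1, and the median change of all 408 miRNAs tested was -0.17 on the log2(RPM + 1) scale, so changes are also given relative to that median. The mesenchymal and contractile markers summed to 2575 to 2946 RPM in Control and 2603 to 3066 in TGF-β1, with reads for all 4, but 2 of these 4 (miR-199a-3p and miR-214-3p) are members themselves. Of the 2 that are not, miR-143-3p had 1892 to 2135 RPM in Control and 1874 to 2348 in TGF-β1, and miR-145-5p had 97.3 to 148.3 and 230.8 to 246.6. The summed endothelial markers reached at most 0.298 RPM and the listed leukocyte and erythroid markers at most 0.659 in any library. Only 3 of the 5 leukocyte and erythroid markers had a row, as miR-142-3p and miR-223-3p had none. Epithelial markers summed to 316.1 to 330.2 RPM in Control and 343.6 to 367.9 in TGF-β1, nearly all of it miR-192-5p. Of the 5 miR-200 family members among them, mean levels were 12.7 RPM in Control and 1.23 in TGF-β1 for miR-200a-3p, 6.74 and 0.601 for miR-200b-3p and 3.99 and 0.290 for miR-429-3p, opposite to the sum, while miR-141-3p and miR-200c-3p had at most 2 reads in any library. Skeletal muscle markers summed to 3440 to 3646 RPM in Control and 3285 to 3465 in TGF-β1, nearly all of it miR-206-3p, while miR-133a-3p had at most 3 reads. Neuronal markers summed to 2.06 to 2.40 RPM in Control and 1.40 to 1.93 in TGF-β1, and the liver marker miR-122-5p had 24.2 to 27.3 and 13.1 to 13.9 RPM. The part of these other cell markers in the results was not tested.

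After TGF-β1 the 5p arm of miR-199a was lower, its 3p arm was slightly lower in fits scaled to library totals, and miR-214-3p did not pass the test. Across groups the members covered a wide range, with the shared miR-199 3p arm far above the rest. The plot of levels by library shows all 6 members.

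**Figure D1:**
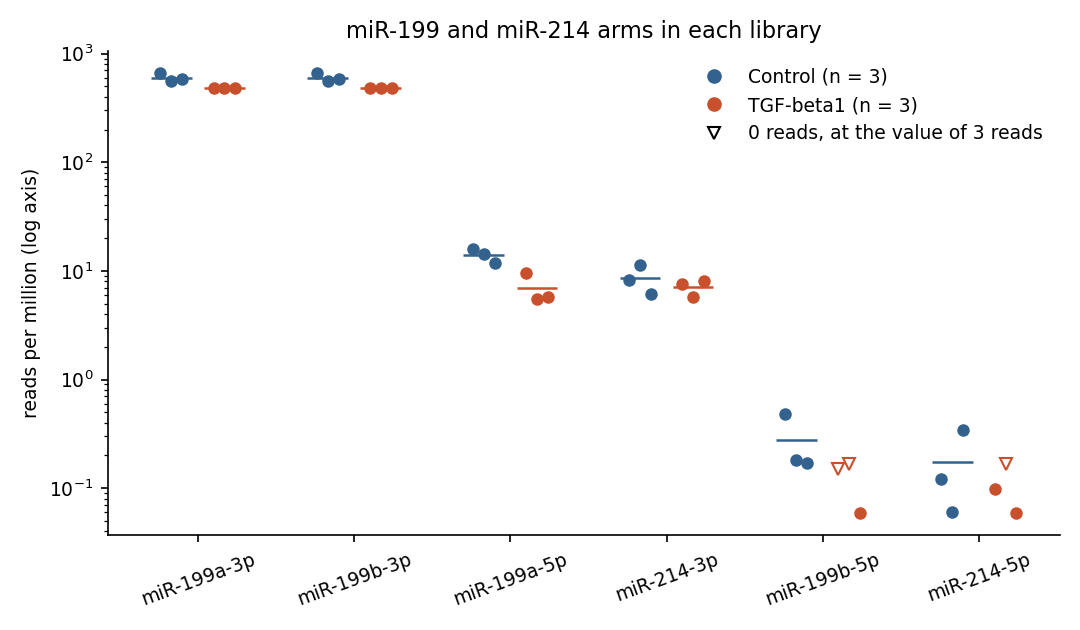
RPM (log axis) of the 6 members in each of the 3 Control and 3 TGF-beta1 libraries. Points are libraries, lines are group means where every library had reads, and open triangles mark 0 reads, drawn at the RPM of 3 reads. The 3p arms of miR-199 sit between 479.6 and 666.3 RPM, miR-199a-5p and miR-214-3p between 5.53 and 15.9, and the other arms below 0.5.

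The shared 3p arm was the abundant strand of the group. MiR-199a-3p had 666.3, 557.5 and 580.1 RPM in Control replicates 1 to 3, and 479.6, 485.3 and 487.0 RPM in TGF-β1 replicates 1 to 3. Each treated library was below each Control library, with the wider spread among the Control values. It held rank 44 to 46 of 778 in Control and rank 40 in each TGF-β1 library, so its place among miRNAs moved up while its RPM moved down. The row of miR-199b-3p had the same read counts in 4 libraries and 2 reads fewer in the other 2, so both rows are treated below as 1 measurement. Its 3p mean was 601.3 ± 57.4 RPM in Control and 484.0 ± 3.86 in TGF-β1 (SD, n = 3 each), a ratio of 0.805.

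The log2 change of miR-199a-3p was -0.31 ± 0.09 (SE), with a 95% interval from -0.51 to -0.10 and a limma adjusted p of 0.0219. Relative to the median of all tested miRNAs it was -0.13 at the pseudocount of 1. With a pseudocount of 0.1 that median was -0.24, and the change of miR-199a-3p was again -0.31. The call depended on scaling to the library total. With TMM scaling the change was -0.10 (limma adjusted p = 0.417), with median-of-ratios scaling -0.10 (0.508), when scaled to the sum of the listed rows -0.17 (0.156), and with upper-quartile scaling 0.0068 (0.986). Without Control replicate 1, the highest library, the change was -0.23 with a limma adjusted p of 0.0700, and without TGF-β1 replicate 2 it was -0.31 with 0.0644. The SD was 9.55% of the mean in Control and 0.798% in TGF-β1, where counting alone would give 0.992% and 1.06%.

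MiR-199a-5p, the other arm of the same hairpins, had the largest fitted change of the 4 tested rows. It had 15.9, 14.3 and 11.9 RPM in Control replicates 1 to 3 (262, 239 and 209 reads), and 9.52, 5.53 and 5.74 RPM in TGF-β1 replicates 1 to 3 (192, 99 and 98 reads). The groups did not overlap, and TGF-β1 replicate 1 stood nearer to Control than the other 2 treated libraries. The mean fell from 14.0 ± 2.04 to 6.93 ± 2.25 RPM (SD, n = 3 each), to 0.494 of Control. Its rank was 152 to 164 in Control and 175 to 215 in TGF-β1.

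On the log2(RPM + 1) scale miR-199a-5p changed by -0.95 ± 0.21 (SE), with a 95% interval from -1.45 to -0.45 and a limma adjusted p of 0.00785. Relative to the median of all tested miRNAs it was -0.78. The change had an adjusted p under 0.05 under each of the 4 other scalings, from -0.84 when scaled to the sum of the listed rows to -0.67 with upper quartile, with limma adjusted p-values from 0.00948 to 0.0176. With edgeR on recovered reads it was -0.86 with TMM (adjusted p = 0.0101) and with DESeq2 -0.80 (adjusted p = 0.00633). Leaving out each library gave changes from -1.17, without TGF-β1 replicate 1, to -0.83. The SD was 14.5% of the mean in Control and 32.4% in TGF-β1, where counting alone would give 6.50% and 8.78%.

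MiR-214-3p, the main strand of miR-214, was low in these cells and did not separate the groups. It had 8.25, 11.3 and 6.07 RPM in Control replicates 1 to 3 (136, 189 and 107 reads), and 7.64, 5.75 and 8.13 RPM in TGF-β1 replicates 1 to 3 (154, 103 and 139 reads). The Control libraries held the highest value, and the treated libraries lay within or just under the Control range, so the groups overlapped. The means were 8.55 ± 2.64 and 7.17 ± 1.26 RPM (SD, n = 3 each). The log2 change was -0.20 ± 0.23 (SE, limma adjusted p = 0.507), and its 95% interval from -0.72 to 0.32 leaves room for a change in either direction. Without Control replicate 2, the highest library, the change was 0.0028. Relative to the median of all tested miRNAs the change was -0.025.

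The remaining strands were near the limit of detection and did not pass the filter on low counts. MiR-199b-5p had 8, 3 and 3 reads in Control and 0, 0 and 1 reads in TGF-β1, or 14 against 1 in sum. The ratio of summed read rates was 0.0657 with an exact 95% interval from 0.00155 to 0.432. Such intervals hold for counting error alone, as amplified reads can be copies of 1 molecule, and they compare these libraries and not the conditions. In the fit with no filter the log2 change of miR-199b-5p was -0.32 with a limma adjusted p of 0.0336. MiR-214-5p had 2, 1 and 6 reads in Control and 2, 0 and 1 in TGF-β1, 9 against 3 in sum, and its ratio of 0.307 had an interval from 0.0534 to 1.23 that includes equality. Where a library had 0 reads, the exact binomial 95% interval reached 0.206 RPM for either strand in TGF-β1 replicate 2. It reached 0.183 RPM for miR-199b-5p in TGF-β1 replicate 1.

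Of the 6 members 4 were tested. An adjusted p under 0.05 was reached by 3 of these 4 rows, all lower, or by 2 of the 3 distinct sequences, while 49.3% of all 408 tested miRNAs were called in either direction and 31.9% were called lower. The median change of the tested members was -0.31, against -0.17 over all tested miRNAs. The median over all was -0.24 with a pseudocount of 0.1. The same 3 rows had groups that did not overlap, lower in TGF-β1, as did 36% of all tested miRNAs. With an absolute log2 change above 1 added 0 of the 4 were called by limma, against 12.3% of all. That 0 depended on the pseudocount of 1. With a pseudocount of 0.1 miR-199a-5p changed by -1.04 (limma adjusted p = 0.00881), and 86 of all 408 passed both conditions. With edgeR on library totals it changed by -1.01 (edgeR adjusted p = 0.0108), and again 86 of 408 passed both. An unadjusted p under 0.05 was found for 3 of the 4 and for 55.9% of all tested miRNAs. With each of the 4 other scalings 1 row was called, that of miR-199a-5p, and of all tested miRNAs TMM called 47.1%, upper quartile 41.2%, the sum of the listed rows 46.1% and median of ratios 45.3%. It was again the 1 called member in edgeR with TMM (45.6% of all called), in DESeq2 (36%), without Control replicate 1 (38.8%) and without TGF-β1 replicate 2 (38.4%). With the replicate number as a block 3 members were called (43.1% of all), and with no filter 4 of 6 (27.6% of all 778), miR-199b-5p added. The plot of change against abundance places the members among all tested miRNAs.

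**Figure D2:**
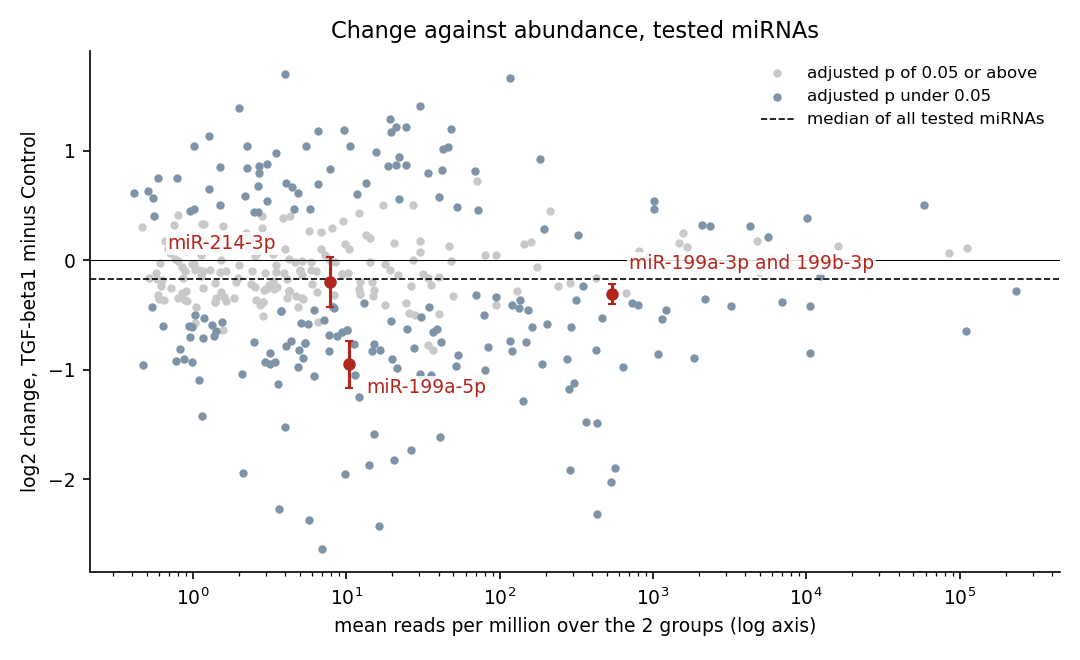
Log2 change (TGF-beta1 minus Control, log2(RPM + 1) scale) of 408 tested miRNAs against mean RPM (log axis), with blue points at a limma adjusted p under 0.05 and the members in red with SE bars. The dashed line is the median change of -0.17. MiR-214-3p lies close to it, miR-199a-3p at -0.31 lies a little below it, and miR-199a-5p lies at -0.95.

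Ratios between members within a library do not depend on scaling, and 3 of them were tested by exact permutation of the libraries (two-sided), in which 3 against 3 cannot give a p below 0.1. The ratio of miR-199a-3p to miR-199a-5p reads was 41.9, 38.9 and 48.9 in Control and 50.4, 87.8 and 84.9 in TGF-β1. Every treated library lay above every Control library, by little for TGF-β1 replicate 1. The mean log2 ratio was 5.43 ± 0.17 in Control and 6.17 ± 0.45 in TGF-β1 (SD, n = 3 each), a difference of 0.75 with an exact p of 0.1, or 0.15 after Benjamini-Hochberg adjustment over the 3 ratios.

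MiR-199a-5p and miR-214-3p, from hairpins that can lie on 1 transcript, were close in level. In Control miR-199a-5p had more reads than miR-214-3p in 3 of 3 libraries, with ratios of 1.93, 1.26 and 1.95, while in TGF-β1 the ratios were 1.25, 0.961 and 0.705. The mean log2 ratio was 0.75 ± 0.36 in Control and -0.081 ± 0.41 in TGF-β1 (SD, n = 3 each), a difference of -0.83 with an exact p of 0.1 and an adjusted p of 0.15 over the 3 ratios. Groups did not overlap, although Control replicate 2 and TGF-β1 replicate 1 were nearly equal. MiR-199a-3p over miR-214-3p gave 80.7, 49.2 and 95.6 in Control and 62.8, 84.4 and 59.9 in TGF-β1, which overlapped (difference of -0.086 on the log2 scale, exact p = 0.9, adjusted p = 0.9).

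**Figure D3:**
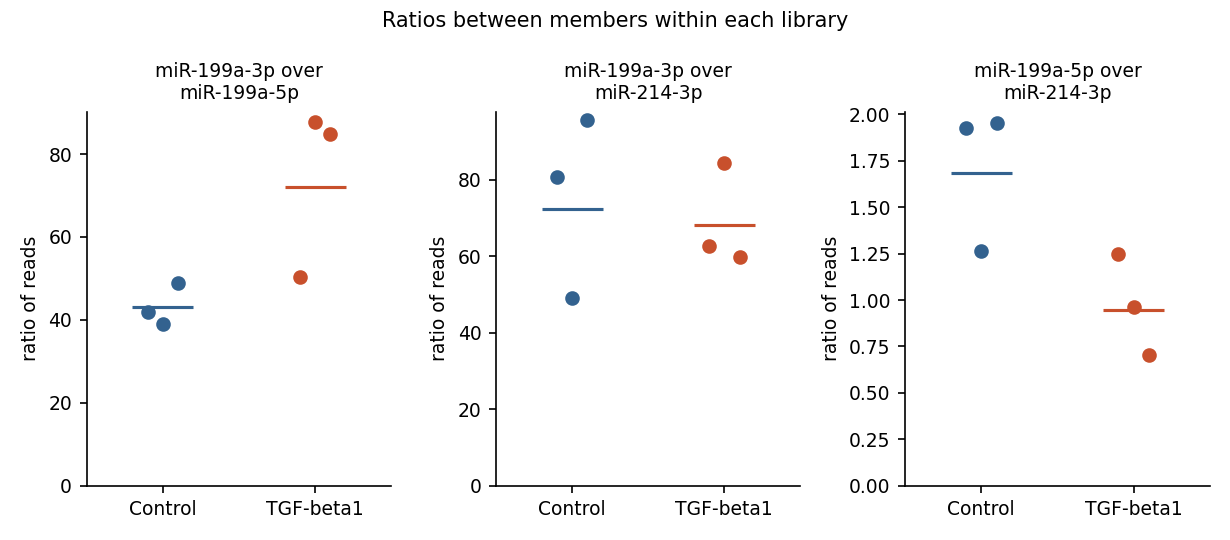
Ratio of reads between pairs of members in each library (linear axes from 0), for Control and TGF-beta1 with 3 libraries each. Points are libraries and lines are geometric means. The ratio of miR-199a-3p to miR-199a-5p is 38.9 to 48.9 in Control and 50.4 to 87.8 in TGF-beta1, while miR-199a-3p over miR-214-3p overlaps between groups.

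The change in the balance of arms was also tested across 103 hairpins whose arms both passed the filter. For miR-199a the log2 ratio of 3p to 5p changed by 0.64 ± 0.27 (SE), with a limma adjusted p of 0.0967, where 28 of the 103 hairpins were called (27.2%). Without TGF-β1 replicate 1 the change was 0.87 with a limma adjusted p of 0.0227, and with a pseudocount of 10 it was 0.21 with 0.257. This 3p row also counts reads that Mir199b could give, so the ratio is one of rows and not of the arms of 1 hairpin. For miR-214 the 5p strand made up 12 of 840 reads of both arms over all libraries, 1.43% (exact binomial 95% interval 0.740% to 2.48%). Of the 5p reads of miR-199a and miR-199b together, miR-199b-5p made up 14 of 724 in Control, 1.93% (1.06% to 3.22%), and 1 of 390 in TGF-β1, 0.256% (0.00649% to 1.42%). These shares pool libraries, so their intervals hold for counting error alone and do not compare the conditions. Of the 14 Control reads 8 came from Control replicate 1.

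In order of level, the miR-199 3p arm came first, followed by miR-199a-5p, miR-214-3p, miR-199b-5p and miR-214-5p in Control. The ranges of miR-199a-5p (11.9 to 15.9 RPM) and miR-214-3p (6.07 to 11.3 RPM) did not overlap in Control, whereas in TGF-β1 they did (5.53 to 9.52 and 5.75 to 8.13 RPM). MiR-199b-5p and miR-214-5p did not differ beyond their spread in either group. Counting each 3p read once, the members summed to 624.4 ± 58.3 RPM in Control and 498.2 ± 2.50 in TGF-β1 (SD, n = 3 each), a difference of -126.2 RPM for which exact permutation (two-sided) gave its smallest possible p of 0.1. Of this sum the 3p arm took 95.6% to 97.7% in every library, miR-199a-5p 1.98% to 2.46% in Control and 1.11% to 1.92% in TGF-β1, and miR-214-3p 1.01% to 1.94% in Control and 1.16% to 1.62% in TGF-β1. In the order of mean Control levels, the miRNAs next above and next below the 3p arm were miR-322-3p (639.8 RPM) and miR-26b-5p (551.7 RPM). Those for miR-199a-5p were miR-345-5p (14.3 RPM) and miR-365-1-5p (13.4 RPM). Those for miR-214-3p were miR-30b-5p (8.58 RPM) and let-7b-3p (8.50 RPM).

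Likeness between rows was measured over the 6 libraries, where the miR-199a rows can hold reads from hairpins outside Dnm3os. Pearson r of log2(RPM + 1) was 0.49 between miR-199a-5p and miR-214-3p and 0.23 between miR-199a-3p and miR-214-3p, as a description over 6 libraries in 2 groups. Most like miR-199a-5p among the other tested miRNAs were miR-652-3p (r = 0.993), miR-196a-2-3p (0.989) and miR-449a-5p (0.989). Most like miR-199a-3p were miR-15a-5p (0.988), miR-504-5p (0.985) and miR-26b-5p (0.984). For miR-214-3p they were let-7e-3p (0.932), miR-1306-5p (0.912) and miR-93-5p (0.879). The difference between groups is part of each r, as are the library totals that all rows share.

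Other miRNAs tied to fibrosis and to contractile cells set the members in context. Of 16 fibrosis-linked miRNAs 15 had a row and 11 were tested, of which 4 were higher and 5 lower with a limma adjusted p under 0.05, and 2 did not pass, beside 49.3% called and 31.9% called lower over all 408. MiR-29a-3p, which targets collagen mRNAs, rose from a mean of 5188 to 6010 RPM (log2 change 0.21, limma adjusted p = 0.0320). In contrast, miR-29b-3p fell with a log2 change of -0.62 (limma adjusted p = 0.00914) and miR-29c-3p with -0.75 (limma adjusted p = 0.00214). Of 10 contractile and mesenchymal miRNAs all 10 were tested, with 2 higher, 3 lower and 5 that did not pass, a share called close to the 49.3% over all 408. MiR-145-5p, a marker of smooth muscle, rose from 127.4 to 238.6 RPM (log2 change 0.92, limma adjusted p = 0.00235), and its cluster partner miR-143-3p had 2029 and 2052 RPM (log2 change 0.010, limma adjusted p = 0.945). The other arm of that partner, miR-143-5p, fell from 417.1 to 196.0 RPM (log2 change -1.12, limma adjusted p = 0.0229). The median changes were 0.072 over the 11 and 0.13 over the 10 tested, against -0.17 over all 408. Among the 4 mesenchymal markers miR-143-3p was the highest and miR-214-3p the lowest in both groups.

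The plot of changes under each processing choice sets the 3 distinct tested sequences side by side. MiR-199a-5p was lower with an adjusted p under 0.05 under every choice shown, miR-199a-3p was called under some, and miR-214-3p was called under none.

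**Figure D4:**
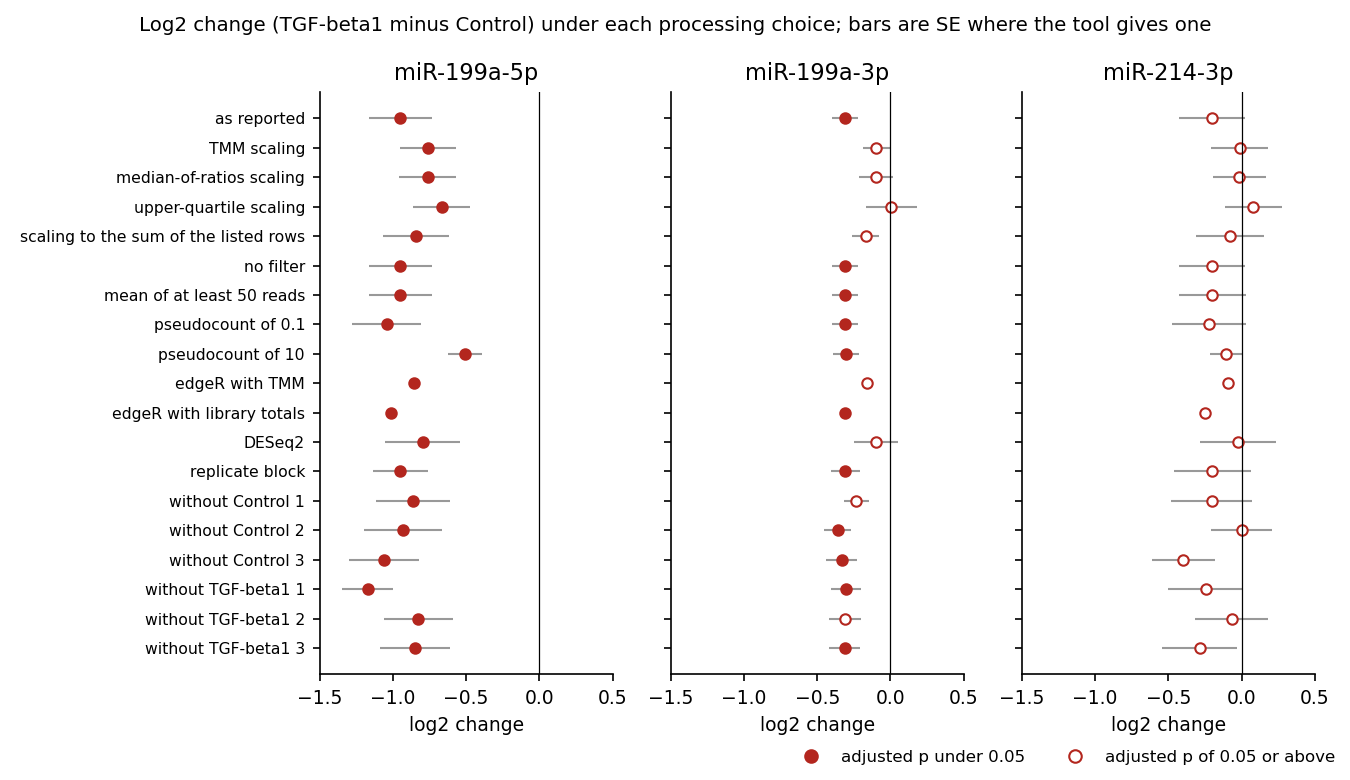
Log2 change (TGF-beta1 minus Control) of miR-199a-5p, miR-199a-3p and miR-214-3p as reported and under each other scaling, filter, pseudocount, test, replicate block and left-out library, with SE bars where the tool gives one. Filled points have an adjusted p under 0.05 and open points do not. MiR-199a-5p stays between -1.17 and -0.51, miR-199a-3p between -0.36 and 0.0068, and miR-214-3p between -0.40 and 0.082.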

How the data were processed

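Per the labels and the methods of the study, adaptors, short and low-quality reads were removed and the rest compared with known mouse miRNAs of miRBase using Bowtie. The authors deposited 1 table of 778 miRNAs, named TPM, which is RPM of the library total with no length scaling. How they counted reads that match several miRNAs is not given in the sources used here. Library totals were recovered as the integer that makes the values whole reads, which held for 100% of values within 0.002 reads.

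Groups were compared on log2(RPM + 1) by limma 3.58.1 in R 4.3.3, with a trended prior and no other term than group, over the 408 miRNAs kept by filterByExpr of edgeR 4.0.16 (minimum count 10), with Benjamini-Hochberg adjustment over all 408. A pseudocount of 1 understates changes of low miRNAs. Single values were compared with exact permutation tests in scipy 1.17.1. Alternatives were other scalings, filters, pseudocounts, edgeR, DESeq2 1.42.0, a replicate block and each library left out. The fits were run on simulated reads with changes larger than those of the tested members, so that run does not bear on changes as small as theirs. Sequences came from RefSeq (GRCm38.p6), and coordinates from exact matches to NCBIM37 with GENCODE vM1.

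The members and the lists of fibrosis-linked, contractile and marker miRNAs were chosen with earlier results of these data known. Named miRNAs are the members, the 3 nearest in pattern and those next in level to each, miRNAs with a shared seed, and list members. Those picked from the lists were chosen after their values were seen.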

Additional observations from a re-analysis of the deposited data

How the results depend on the processing

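MiR-199a-5p kept its direction and an adjusted p under 0.05 under all alternatives run, with log2 changes of -1.17 to -0.83 over the left-out libraries and -0.51 at the weakest, with a pseudocount of 10. For miR-199a-3p and miR-199b-3p alike the change of -0.31 no longer passed with TMM (-0.097), median of ratios (-0.10), the sum of the listed rows (-0.17), edgeR with TMM (-0.16) or DESeq2 (-0.099), reversed with upper quartile (0.0068), and lay between -0.36 and -0.23 over the left-out libraries, with adjusted p-values from 0.0272 to 0.0700. MiR-214-3p passed under none, reversed with upper quartile (0.082) and without Control replicate 2 (0.0028), and ran from -0.40 to 0.0028 over the left-out libraries. Members called numbered 3, against 1 with each of these 4 scalings, with edgeR and TMM and with DESeq2. They numbered 0 with an absolute log2 change above 1 at the pseudocount of 1, and 4 with no filter. They numbered 2 with the miR-199b-3p row left out (chosen after seeing the data). Over the left-out libraries they numbered 1 to 3, with 1 without Control replicate 1 and without TGF-beta1 replicate 2. The cause was not tested, except that adding a condition on size can only remove calls.

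Left-out libraries gave 7 to 8 fibrosis-linked miRNAs (9 with all libraries) and 3 to 5 contractile and mesenchymal ones, with 3 without TGF-beta1 replicate 2. Of all miRNAs tested in these fits, 38.4% (without TGF-beta1 replicate 2) to 49.3% (without TGF-beta1 replicate 1) were called. The arm ratio change of miR-199a was 0.64, 0.21 with a pseudocount of 10 (adjusted p = 0.257), and 0.52 to 0.87 over the left-out libraries, past the threshold without TGF-beta1 replicate 1, and the number of hairpins called was 28, against 2 with a pseudocount of 0.1, 38 with 10, 2 with the replicate block and 2 to 21 over the left-out libraries. The summed level differed by -126.2 RPM, by -243.5 with rows counted as written, and by -146.7 to -92.8 over the left-out libraries. The log2 ratio of miR-199a-3p to miR-214-3p reversed without Control replicate 3 (0.11) and without TGF-beta1 replicate 3 (0.0081), from -0.36 to 0.11 over all. That of miR-199a-3p to miR-199a-5p kept its direction, at 0.60 to 1.004. That of miR-199a-5p to miR-214-3p also kept its direction, at -1.04 to -0.62.

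Pairing by replicate number had no support in the values, as deviations of libraries with 1 number had correlations of -0.084, -0.21 and -0.34. In the fit with the replicate block 3 members were called and the log2 changes were -0.95 for miR-199a-5p, -0.31 for miR-199a-3p and -0.20 for miR-214-3p, with adjusted p-values of 0.00910, 0.0417 and 0.589. Depth limits miR-199b-5p and miR-214-5p, which had at most 8 reads in a library.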
